A study of Rattus norvegicus with 12 samples.

Results

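The interleukins and their receptors were examined in the wound skin of diabetic rats, as the 79 genes, of 25620 in the deposited read count table, whose symbol begins with Il and a digit. They comprise 35 ligands, 6 antagonists, decoy receptors, or binding proteins, 37 receptor chains, and 1 enzyme (Il4i1, an amino acid oxidase of immune cells that shares the name). All animals were male SD rats, bought as young adults, made diabetic with streptozotocin (STZ), and given a full-thickness punch wound on the back. Wounds received saline (control), *A. fulica* d-SMG (dried snail mucus gel), s-GAG (the glycosaminoglycan of the same mucus, GAG in the sample labels), or an alginate dressing (Alg), and skin was taken on day 3, 7, and 14. The data hold 1 library for each treatment and day, 12 in all, and whether a library came from 1 rat or several was not given. STZ diabetes is a toxin model of insulin loss, and rat skin carries a muscle layer that human skin mostly lacks.

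Interleukins are secreted proteins by which immune, epithelial, and stromal cells signal to each other. They act through paired receptor chains, of which the IL-1 family chains signal through MyD88 to NF-kappaB, whereas the IL-2, IL-6, IL-10, and IL-12 families use JAK kinases and STAT factors. In a skin wound, IL-1 and IL-6 belong to the early inflammatory response, IL-10 restrains it, and the IL-20 and IL-22 group acts on keratinocytes. IL-33 is an alarmin that is stored in the nuclei of barrier and stromal cells and is released on damage.

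The libraries held between 13748887 and 38302461 reads on genes, of which the interleukin genes took between 0.0617% and 0.1435%. Markers of the skin and of its immune cells were found in all libraries, but 2 libraries stood apart in their keratinocyte or macrophage markers. In the d-SMG library of day 3, the summed level of 11 keratinocyte markers was 52.2 CPM (counts scaled to a common library total, with TMM factors), against 4090 to 39200 CPM in the other 11 libraries, although no marker was at 0. In the same library the skeletal muscle markers summed to 197000 CPM, against 4650 to 134000 CPM elsewhere. The muscle sum also differed widely among the other libraries, and was 134000 CPM with Alg on day 7. It was 4650 CPM with d-SMG on day 7, against 53100 CPM in the control. With d-SMG and Alg on day 14 it was 6430 and 10300 CPM, against 53000 CPM. In these 3 pairs 10, 11, and 10 of 11 muscle markers were 2-fold lower. In the s-GAG library of day 14, the 11 macrophage and monocyte markers summed to 645 CPM, against 1000 to 4510 CPM elsewhere, and 27.2% and 29.7% of all genes were at least 2-fold higher and lower than in the control library of that day. Because these are bulk libraries, fewer cells of a type and less RNA per cell cannot be told apart.

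Promoters were matched in a RefSeq table of build GRCr8 for 62 of the 79 genes, some with more than 1 start site. Those of Il1b and Il6, the pair of inflammatory ligands that were higher on day 14 with d-SMG and Alg, and of Il33, the ligand that was lower than control in all 9 pairs of libraries, are printed below from 250 bases before to 50 bases after the start. All read 5′ to 3′ on the strand of the gene, which is minus for Il1b (chr3:137036532-137036831) and Il6 (chr4:5894526-5894825) and plus for both start sites of Il33 (chr1:237115323-237115622 and chr1:237134696-237134995). The capitals mark matches, on either strand, to a TATA box (TATAAA), a CRE (TGACGTCA), AP-1 (TGANTCA), a STAT site (TTCNNNGAA), or the kappaB consensus.
Il1b: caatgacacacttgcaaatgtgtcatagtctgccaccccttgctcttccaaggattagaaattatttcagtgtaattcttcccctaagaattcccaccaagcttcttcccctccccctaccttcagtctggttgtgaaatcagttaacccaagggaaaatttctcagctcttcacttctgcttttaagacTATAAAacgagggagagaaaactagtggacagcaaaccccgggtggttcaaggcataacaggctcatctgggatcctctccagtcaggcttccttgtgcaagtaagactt
Il6: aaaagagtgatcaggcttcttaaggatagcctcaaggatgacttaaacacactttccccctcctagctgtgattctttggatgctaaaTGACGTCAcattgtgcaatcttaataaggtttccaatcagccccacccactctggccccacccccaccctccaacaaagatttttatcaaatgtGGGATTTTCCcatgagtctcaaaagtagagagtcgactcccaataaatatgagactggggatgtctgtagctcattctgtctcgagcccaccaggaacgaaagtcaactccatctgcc
Il33, start 1: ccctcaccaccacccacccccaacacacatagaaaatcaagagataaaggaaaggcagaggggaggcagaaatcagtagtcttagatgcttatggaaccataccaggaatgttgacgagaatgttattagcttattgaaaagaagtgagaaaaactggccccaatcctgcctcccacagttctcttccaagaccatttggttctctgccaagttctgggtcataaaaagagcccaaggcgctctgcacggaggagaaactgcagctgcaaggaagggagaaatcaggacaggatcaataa
Il33, start 2: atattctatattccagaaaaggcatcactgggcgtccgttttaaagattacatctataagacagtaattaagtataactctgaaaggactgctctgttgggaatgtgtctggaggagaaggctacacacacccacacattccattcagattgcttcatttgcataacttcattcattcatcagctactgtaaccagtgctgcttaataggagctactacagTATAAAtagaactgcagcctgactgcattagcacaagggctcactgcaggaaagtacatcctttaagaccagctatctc

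In the Il6 window, the kappaB match began 68 bases and the CRE 162 bases before the start site, whereas the Il1b window held a TATA box alone of these motifs, 60 bases before it. Of the Il33 windows, that of the second start held a TATA box 29 bases before the site and that of the first held none of the 5 motifs. A kappaB match was found in 13 of the 69 interleukin windows (18.8%) and in 7.51% of all 33469 windows. The corresponding shares were 8.7% and 7.33% for AP-1, 2.9% and 1.83% for CRE, 11.6% and 8.87% for the STAT site, and 17.4% and 14.2% for the TATA box. A match describes the letters of a window and says nothing about binding.

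Many of these genes lie side by side. By gene order in RefSeq, 33 of the 79 stood in 12 runs of adjacent protein-coding genes, the longest being the IL-1 family run on chromosome 3 (Il36g, Il36a, Il36b, Il36rn, Il1f10, and Il1rn), of 6 genes. On chromosome 9 the receptor chains Il1r1, Il1rl2, Il1rl1, Il18r1, and Il18rap followed each other, and on chromosome 13 the ligands Il24, Il20, Il19, and Il10.

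Levels of different genes were compared in FPKM, which is scaled by gene length. The highest mean over the 12 libraries was that of Il6st (gp130, the signalling chain shared by the IL-6 family), at 32.8 (13.3 to 44.9) FPKM, with the lowest and highest library in parentheses. It was followed by Il17ra, the common chain of the IL-17 receptors, at 20.9 (11.5 to 38.3) FPKM, and Il11ra1, the IL-11 receptor, at 18.8 (6.3 to 50.4) FPKM. Next came Il4r, a chain of the IL-4 and IL-13 receptors, at 12.2 (3.92 to 30.4) FPKM, and Il20rb, a chain of the IL-20 receptors in keratinocytes, at 9.9 (3.43 to 16.3) FPKM. The ranges of neighbours in this order overlapped. The ligands with the highest means were Il1b at 9.73 (2.44 to 20.2) FPKM and Il33 at 8.4 (1.09 to 17.9) FPKM, and the remaining genes among the 12 highest were Il1r1, Il3ra, Il1r2, Il1rn, and Il10ra, between 6.94 and 8.92 FPKM. Of these 12 genes, 8 encode receptor chains, 2 ligands, and 2 an antagonist and a decoy receptor.

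**Figure D1:**
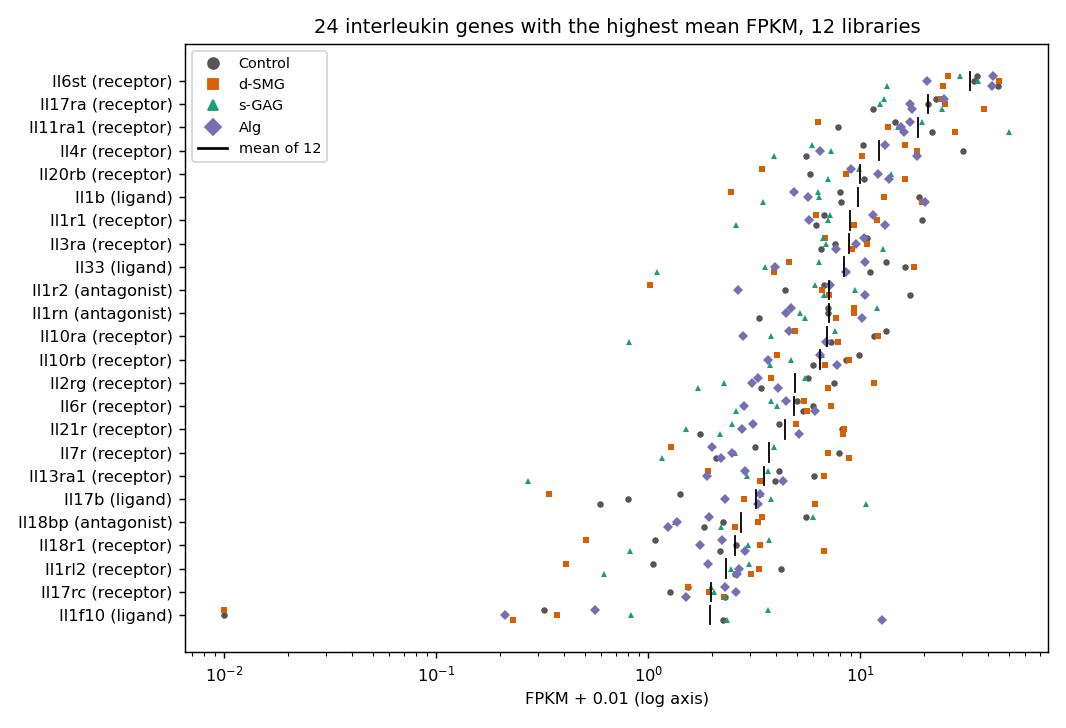
FPKM plus 0.01, on a log axis, of the 24 interleukin genes with the highest mean, with 1 point per library, coloured by treatment, the 3 days of a treatment slightly offset, and the mean of 12 libraries as a black line. Of these genes 17 are receptor chains, 4 are ligands, and 3 are antagonists or binding proteins, and the means run from 32.8 FPKM for Il6st downwards.

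At the other end, 13 genes had under 20 reads over the 12 libraries together. These were the T cell ligands Il2, Il3, Il4, Il5, Il13, Il17a, Il17f, Il22, and Il31, the epithelial ligands Il17c and Il25, and Il1rapl1 and Il1rapl2, receptor-like proteins known from the nervous system. None had more than 6 reads in any library, so no difference between treatments was detectable for them at this depth. Il4 was seen with 1 read and Il2 with 4 reads in all, whereas the receptor chains Il4r and Il2rg had at least 311 and 58 reads in every library. In all, 27 of the 79 genes were at 0 in at least 1 library.

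To ask whether a treatment differed from control over the 3 days, or the days from each other over the 4 treatments, treatment and day were fitted together with the quasi-likelihood test of edgeR. Since each treatment has 1 library a day, its 3 days stand in for replicates, and any effect that differs between them adds to the residual variation. Of the 61 interleukin genes that passed the filter on low counts, 0 were called in either direction in any of the 6 contrasts at an adjusted p of 0.05, and the share called among all 16110 genes was 0% throughout. At an unadjusted p under 0.05 there were 1, 5, and 2 interleukin genes for d-SMG, s-GAG, and Alg against control, and 2, 5, and 2 for day 7 against 3, day 14 against 3, and day 14 against 7. The shares of all genes under the same limit were 1.35%, 9.26%, and 3.12% for the treatments and 1.81%, 4.95%, and 3.12% for the days. For s-GAG against control, DESeq2 called 1 of 65 interleukin genes (Il33, described below), or 1.54%, which is also the share it called among all genes (277 of 17981). In the other 5 contrasts DESeq2 called 0 interleukin genes, beside 0.0355% and 0.367% of all genes for d-SMG and Alg and 0.0710%, 0.210%, and 0.103% for day 7 against 3, day 14 against 3, and day 14 against 7. Fitted without the d-SMG library of day 3, edgeR called 0 interleukin genes in each contrast but 66 of all genes for s-GAG against control, and without the s-GAG library of day 14 it called 0 of either.

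The median fitted log2 change of the interleukin genes was -0.01, -0.12, and -0.11 for d-SMG, s-GAG, and Alg against control, beside -0.03, 0.002, and -0.03 over all genes. Between the days it was 0.23 for day 7 against 3, 0.22 for day 14 against 3, and 0.05 for day 14 against 7, beside -0.002, 0.01, and 0.02 over all genes. Between day 3 and 14 the fitted change was below 0 for 34.4% of the 61 genes and for 48.8% of all genes.

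The treated libraries were then set against the control library of the same day, 1 library against 1, which gives differences between those libraries and no p-value. A log2 ratio is that of TMM-scaled reads with 0.5 added, the square brackets give its 95% exact interval, which covers counting error only, and a gene counts as 2-fold when its log2 ratio is at least 1 in size with at least 20 reads in the pair. The 3 treated libraries of a day share 1 control library.

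On day 3, 5 of 49 interleukin genes were at least 2-fold higher and 15 lower with d-SMG, where the shares over all genes were 8.77% and 12.7%. With s-GAG 14 of 55 were higher and 5 lower, beside 13.1% and 10.1% of all genes. With Alg 5 of 54 were higher and 8 lower, beside 9.83% and 7.86%. The lower genes with d-SMG (30.6%) and the higher genes with s-GAG (25.5%) were thus the groups that exceeded the share of all genes most on this day. In the d-SMG pair 11 of 11 keratinocyte markers were 2-fold lower, with a median log2 ratio of -7.10, and 5 of 11 macrophage and monocyte markers. In the s-GAG pair 7 of 11 keratinocyte and 7 of 9 T and NK cell markers were 2-fold higher, and the part of any of these in the counts was not tested.

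On day 7, 5 of 55 were higher and 8 lower with d-SMG, beside 5.19% and 5.47% of all genes. With s-GAG 10 of 58 were higher and 21 lower, beside 11.8% and 11.6%, and with Alg 10 of 53 were higher and 17 lower, beside 11.0% and 11.1%. The genes that were lower were therefore 36.2% and 32.1% of those measured in the s-GAG and Alg libraries. The 16 genes that were 2-fold lower in both were Il10, Il10ra, Il11, Il13ra1, Il17rb, Il18rap, Il1b, Il1r1, Il1rl1, Il21r, Il2ra, Il2rb, Il2rg, Il33, Il4r, and Il7r, most of them receptor chains of immune and stromal cells. Both pairs share the control library of day 7, and the share of all genes 2-fold lower in both was not computed. The macrophage and monocyte markers summed to 1390 CPM with s-GAG and 1000 CPM with Alg on this day, against 3270 CPM in the control and 4510 CPM in the d-SMG library. Their part in the lower receptor levels was not tested.

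On day 14, 17 of 57 were higher and 6 lower with d-SMG, beside 11.5% and 14.8% of all genes. With Alg 12 of 55 were higher and 4 lower, beside 8.27% and 10.5%. With s-GAG 9 of 53 were higher and 17 lower, beside 27.2% and 29.7%. In this pair the interleukin genes that were higher (17%) fell short of the share of all genes, and those that were lower (32.1%) were close to it. Of 11 skeletal muscle markers, 11 and 10 were 2-fold lower with d-SMG and Alg, and with s-GAG 7 were higher and 2 lower. Their part in the counts was not tested. Only Il17b and Il1rn were 2-fold higher with all 3 treatments on day 14, and no interleukin gene with enough reads was 2-fold lower with all 3. The shares of all genes past 2-fold with all 3 treatments were not computed.

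**Figure D2:**
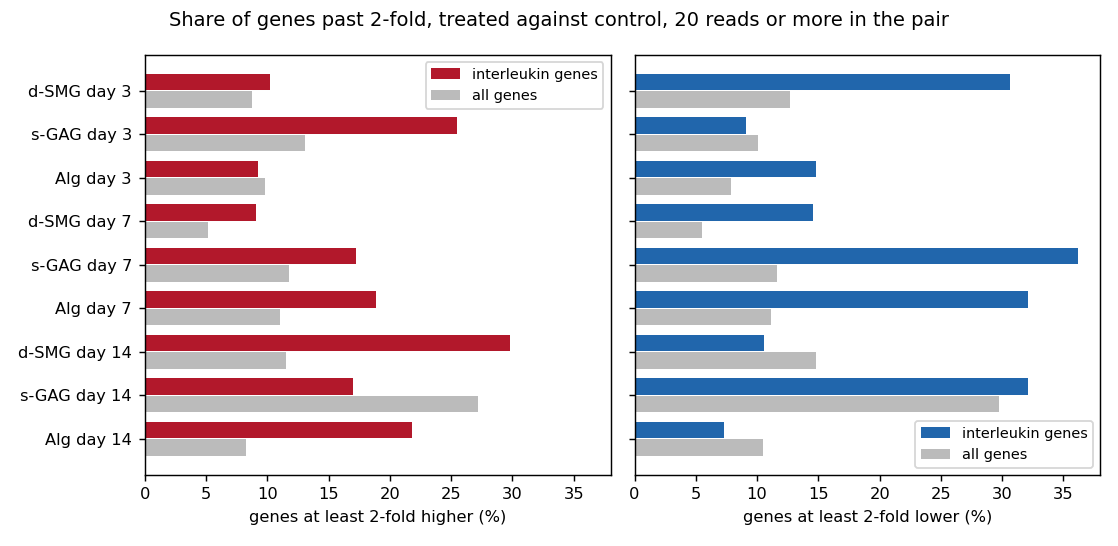
Percent of genes at least 2-fold higher (left) or lower (right) than the control library of the same day, for interleukin genes (coloured bars) and all genes (grey bars) with at least 20 reads in the pair. The lower share reaches 36.2% of interleukin genes with s-GAG on day 7, where it is 11.6% of all genes, and the higher share 29.8% with d-SMG on day 14, where it is 11.5%.

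**Figure D3:**
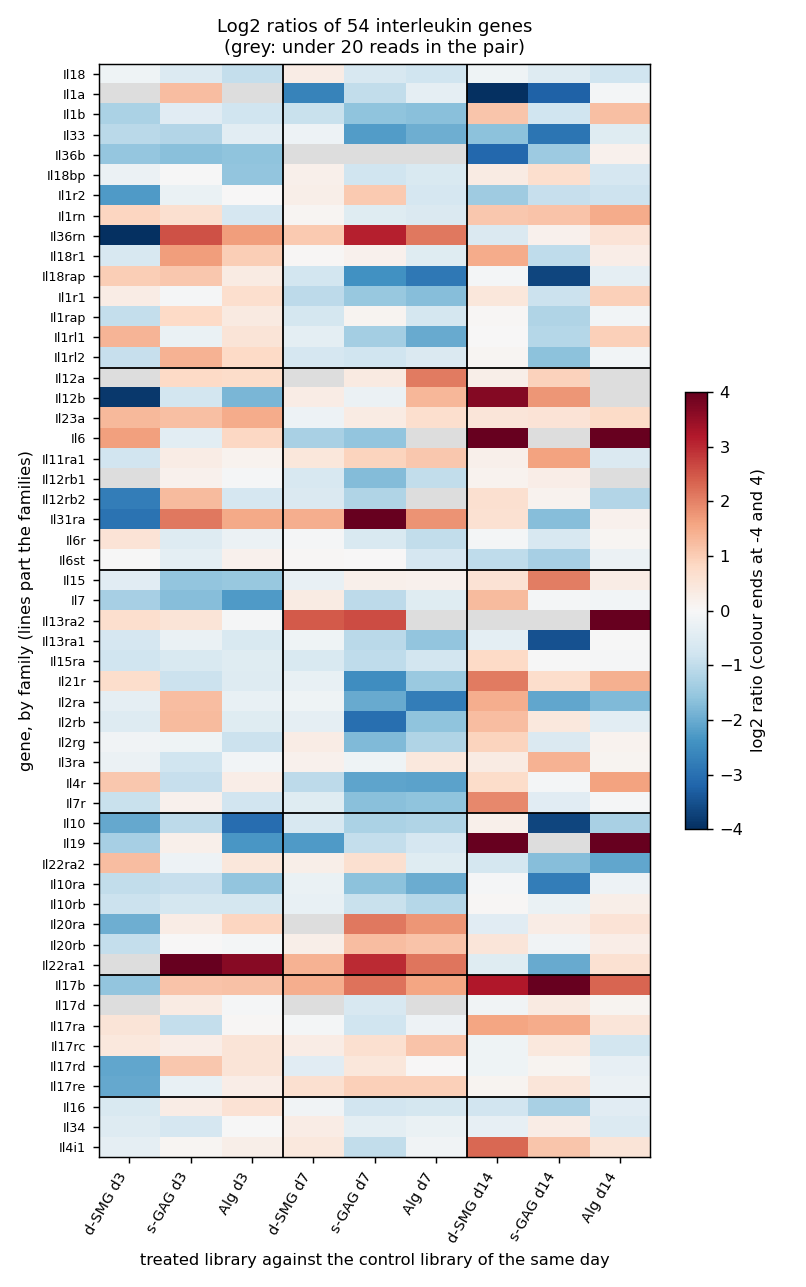
Log2 ratio of each treated library to the control library of the same day for the 54 interleukin genes with at least 20 reads in at least 6 of the 9 pairs, by family from the IL-1 family at the top through IL-6 and IL-12, the common gamma chain group, IL-10, and IL-17 to the rest. Il33 is lower in all 9 columns, Il17b is higher in 8, and most of the IL-1 and common gamma chain receptors are lower with s-GAG and Alg on day 7.

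Among the ligands of the IL-1 family, Il33 was lower than control in all 9 pairs. Its level on day 3, 7, and 14 (the order of days in all such sets of values) was 109, 138, and 91.99 CPM in the control libraries, 51.3, 121, and 29.2 CPM with d-SMG, 48.3, 29.5, and 12.1 CPM with s-GAG, and 81.8, 35.3, and 65.1 CPM with Alg. Every treated library was thus below the control library of its day, and the d-SMG library of day 7 was closest to it. The log2 ratios were -1.08 [-1.21 to -0.96], -0.19 [-0.27 to -0.10], and -1.65 [-1.80 to -1.51] with d-SMG, -1.17 [-1.28 to -1.06], -2.22 [-2.33 to -2.12], and -2.93 [-3.16 to -2.71] with s-GAG, and -0.41 [-0.50 to -0.32], -1.96 [-2.10 to -1.82], and -0.50 [-0.61 to -0.39] with Alg. Over the 3 days the fitted log2 change with s-GAG was -2.04 ± 0.56 (SE), with an adjusted p of 0.417 by edgeR and of 0.0295 by DESeq2, and it was lower in 3 of 3 matched libraries. That adjusted p was the smallest among the interleukin genes in edgeR and did not pass the threshold. Fitted without the s-GAG library of day 14, the change was -1.71 ± 0.63 (SE), with an adjusted p of 0.52 by edgeR, and without the d-SMG library of day 3 it was -2.10 ± 0.57 (SE), with an adjusted p of 0.19. Il1rl1, which encodes ST2, the receptor of IL-33, was at 10.4, 26.7, and 12.6 CPM in the control libraries. It was at 26.8, 20.2, and 12.8 CPM with d-SMG, 8.72, 10.5, and 5.66 CPM with s-GAG, and 15, 6.51, and 24.6 CPM with Alg. With s-GAG it was below control on all 3 days, by 2.54-fold on day 7, and was 2-fold lower on day 14 too. With d-SMG and Alg it was above control on day 3 (2.57-fold with d-SMG) and below it on day 7 (4.09-fold with Alg).

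Il1b, the inflammatory IL-1 ligand of macrophages and neutrophils, was present at 11.3, 27.6, and 11.5 CPM in the control libraries, 4.67, 15.01, and 24.9 CPM with d-SMG, 8.2, 9.02, and 6.54 CPM with s-GAG, and 6.51, 8.68, and 26.3 CPM with Alg. The control library was highest on day 7, and the d-SMG and Alg libraries were highest on day 14. On day 3 the log2 ratio of d-SMG was -1.27 [-1.71 to -0.86], which was 2-fold lower, while s-GAG and Alg were within 2-fold of control. On day 7 the log2 ratios of s-GAG and Alg were -1.62 [-1.83 to -1.41] and -1.67 [-1.97 to -1.38], and on day 14 those of d-SMG and Alg were 1.11 [0.87 to 1.35] and 1.19 [0.96 to 1.43], whereas that of s-GAG was -0.81 [-1.17 to -0.47]. The markers of neutrophils, a source of Il1b, summed to 33 CPM in the control library of day 14, and to 50.3, 47.6, and 165 CPM with d-SMG, s-GAG, and Alg. The single neutrophil markers did not all follow these sums. Of the 6 with enough reads, 2, 1, and 3 were 2-fold higher and 2, 4, and 2 lower with d-SMG, s-GAG, and Alg. The macrophage and monocyte markers summed to 2880 CPM in that control and to 1690, 645, and 3420 CPM with the treatments, and the part of either set in the Il1b levels was not tested.

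Il1a, the IL-1 ligand that epithelial cells hold in store, had few reads, with 8, 23, and 72 reads in the control libraries, 0, 5, and 2 with d-SMG, 14, 31, and 5 with s-GAG, and 1, 18, and 54 with Alg. On day 14 the control and Alg libraries were high and the d-SMG and s-GAG libraries low, and the log2 ratios were -4.49 [-7.88 to -2.90] with d-SMG, -3.24 [-5.03 to -2.08] with s-GAG, and -0.06 [-0.60 to 0.46] with Alg. The fitted change with d-SMG over the 3 days was -3.58 ± 1.19 (SE), with an adjusted p of 1 by edgeR, and was lower in 3 of 3 libraries, by 6.34-fold on day 7. Il18, which is processed by the inflammasome, varied little, at 7.73, 6.69, and 6.88 CPM in the control libraries, 6.84, 8.24, and 6.04 CPM with d-SMG, 5.28, 4.28, and 4.77 CPM with s-GAG, and 3.97, 3.86, and 3.91 CPM with Alg. Its log2 ratio was below 0 in 8 of 9 pairs, with an interval that includes 0 in 2 of these, and reached 2-fold in none, and its fitted change with Alg was -0.86 ± 0.29 (SE) with an adjusted p of 1 by edgeR.

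The IL-36 group and Il1f10 (IL-38) are epidermal members of the family. Il1f10 had 7, 0, and 43 reads in the control libraries, 0, 6, and 3 with d-SMG, 55, 30, and 43 with s-GAG, and 10, 3, and 175 with Alg. The Alg library of day 14 was highest, 5.13-fold above its control, and with 30 reads against 0 the s-GAG library of day 7 was at least 3.78-fold higher. On day 3 the s-GAG library was 10.1-fold higher, and on day 14 the d-SMG library was 9.64-fold lower. Il36b, with at most 28 reads in a library, was 2-fold lower with all 3 treatments on day 3, with log2 ratios of -1.54 [-4.12 to 0.04], -1.67 [-3.81 to -0.21], and -1.60 [-3.48 to -0.23] for d-SMG, s-GAG, and Alg, the first of which has an interval that includes 0. It was also lower on day 14 with d-SMG (-3.14 [-6.56 to -1.45], with 2 reads) and s-GAG (-1.44 [-2.96 to -0.29]). Il36a was seen mainly in the Alg library of day 14, with 18 reads against 0 in the control, too few for a ratio, and Il36g was 2.8-fold higher in the same library.

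The family is restrained by antagonists, decoys, and binding proteins. Il1rn, the IL-1 receptor antagonist, was measured at 16.4, 16.9, and 7.76 CPM in the control libraries, 29.6, 17.8, and 16.2 CPM with d-SMG, 25.7, 12.2, and 17.1 CPM with s-GAG, and 10.4, 11.3, and 21.9 CPM with Alg. On day 14 all 3 treated libraries were above the control, at log2 ratios of 1.06 [0.77 to 1.36], 1.14 [0.85 to 1.44], and 1.49 [1.22 to 1.77] with d-SMG, s-GAG, and Alg. Il1r2, the decoy receptor of IL-1, had levels of 11.1, 7.51, and 28.5 CPM in the control libraries, 2.25, 8.93, and 10.6 CPM with d-SMG, 9.29, 15.7, and 14.9 CPM with s-GAG, and 11.3, 4.74, and 16.03 CPM with Alg. The control library of day 14 was the highest of the 12, and on that day the d-SMG library was 2.67-fold lower, s-GAG and Alg lying below control without reaching 2-fold. Its largest difference was with d-SMG on day 3, at -2.28 [-2.92 to -1.74] on the log2 scale, and the s-GAG library of day 7 was 2.08-fold higher.

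Il36rn, the antagonist of IL-36 in the epidermis, was found at 0.84, 0.819, and 7.13 CPM in the control libraries, 0, 1.75, and 4.72 CPM with d-SMG, 4.99, 7.34, and 7.98 CPM with s-GAG, and 2.69, 3.66, and 10.5 CPM with Alg. It was at 0 reads in the d-SMG library of day 3 against 20 in the control, or at least 3.48-fold lower, and was 5.83-fold and 3.16-fold higher with s-GAG and Alg on that day. On day 7 it was 2.08-fold, 8.62-fold, and 4.33-fold higher with d-SMG, s-GAG, and Alg. Its fitted change between day 3 and 14 was 2.51 ± 0.77 (SE), higher in 4 of 4 treatments, with an adjusted p of 0.882 by edgeR. Il18bp, which binds IL-18, was lower on day 14 than on day 3 in 4 of 4 treatments, at -1.06 ± 0.36 (SE) on the log2 scale with an adjusted p of 0.882 by edgeR.

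Of the receptors, Il1r1, the signalling chain for IL-1, was at 54.9, 164, and 50.5 CPM in the control libraries, 67.3, 79.9, and 68.5 CPM with d-SMG, 53.5, 56.98, and 27.9 CPM with s-GAG, and 87.8, 50.8, and 97.4 CPM with Alg. The control library of day 7 stood above all other libraries, so that the 3 treated libraries of that day were 2-fold lower, at log2 ratios of -1.04 [-1.13 to -0.95], -1.52 [-1.61 to -1.44], and -1.69 [-1.81 to -1.57] for d-SMG, s-GAG, and Alg. The sum of the fibroblast markers was also highest in that control library, at 43800 CPM against 5900 to 31200 CPM in the other 11. Most of it was collagen, with 222128, 126892, and 269359 reads of Col1a1, Col1a2, and Col3a1. Pdgfra and Lum also had more reads there than in the control libraries of day 3 and 14. Dcn had fewer (9190 against 22250 and 25938), as had Fbln1 (343 against 370 and 1002), in a library with fewer reads. The part of these markers in the Il1r1 levels was not tested. The IL-18 receptor chain Il18rap was at 4.79, 33.5, and 15.3 CPM in the control libraries, 9.57, 20.1, and 14.6 CPM with d-SMG, 10.2, 6.18, and 1.16 CPM with s-GAG, and 5.98, 4.61, and 11.8 CPM with Alg. It was 5.4-fold and 7.21-fold lower with s-GAG and Alg on day 7 and 12.8-fold lower with s-GAG on day 14, but 2.12-fold higher with s-GAG on day 3. Its partner Il18r1 was 3.19-fold higher with s-GAG on day 3 and 2.77-fold higher with d-SMG on day 14. Il1rap, the accessory chain of the family, was 2-fold from control only with s-GAG on day 14 (2.29-fold lower), and Il1rl2, the IL-36 receptor, was 2.61-fold higher with s-GAG on day 3 and 3.14-fold lower with it on day 14.

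**Figure D4:**
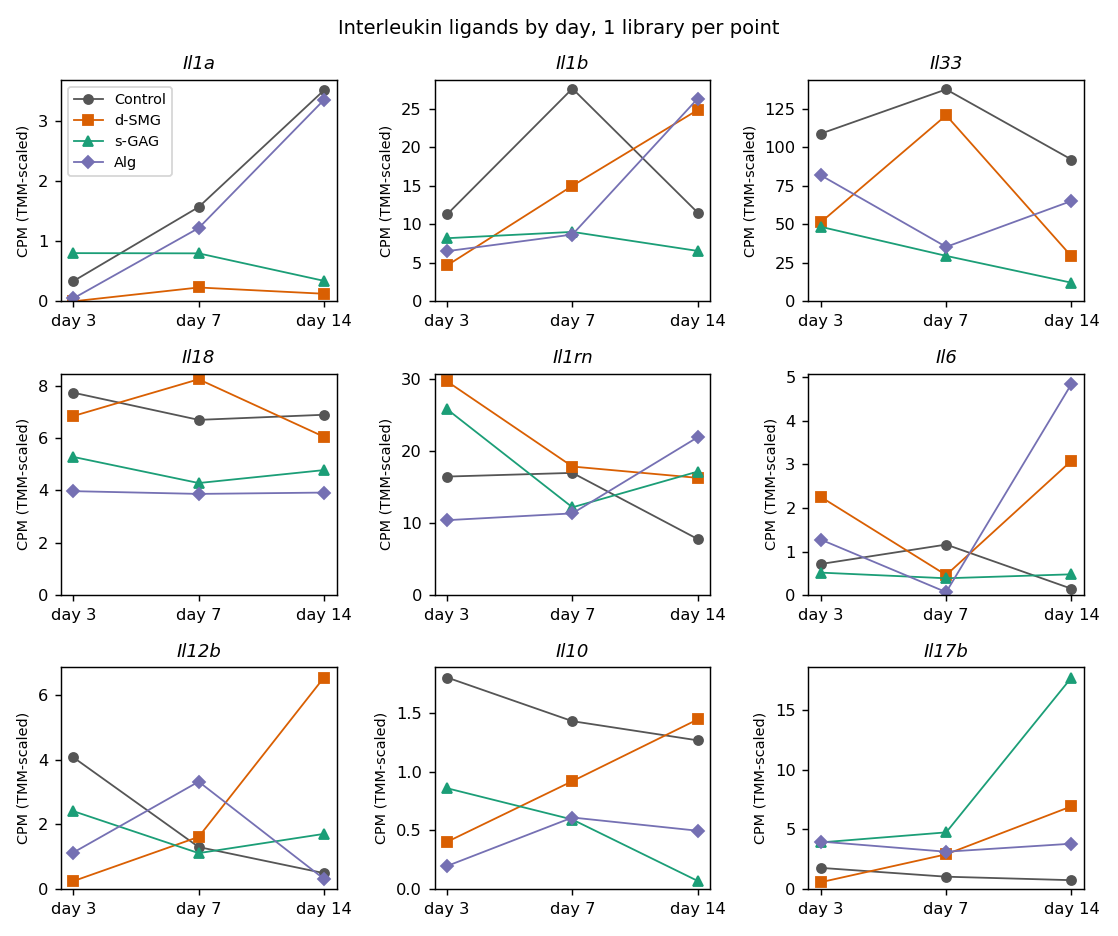
TMM-scaled CPM of 8 ligands and of the antagonist Il1rn on day 3, 7, and 14 (vertical axes start at 0 and differ between panels), with 1 library per point and lines joining the days of a treatment. Il33 lies below control in every treated library, Il1b and Il6 are higher with d-SMG and Alg than in the control on day 14, and Il17b reaches 17.7 CPM with s-GAG on day 14 against 0.732 CPM in the control.

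In the IL-6 and IL-12 families, Il6 itself, the inducer of the acute phase response, had low counts, with 17, 17, and 3 reads in the control libraries, 28, 10, and 49 with d-SMG, 9, 15, and 7 with s-GAG, and 26, 1, and 78 with Alg. On day 14 the d-SMG library (49 reads) and the Alg library (78 reads) stood above the control (3 reads), with log2 ratios of 4.19 [2.76 to 6.72] and 4.83 [3.45 to 7.36], and the s-GAG library (7 reads) had too few reads to call. On day 7 the order was the opposite, as the control had 17 reads and Il6 was 2.47-fold and 2.99-fold lower with d-SMG and s-GAG. On day 3 the d-SMG library was 3.12-fold higher. Its receptors did not share this pattern. Il6r, the binding chain, was within 2-fold of control in every pair, and Il6st was 2-fold lower on day 14 with d-SMG and s-GAG (-1.01 [-1.07 to -0.95] and -1.33 [-1.40 to -1.26] on the log2 scale), at 311, 310.4, and 392 CPM in the control libraries, 307, 322, and 195 CPM with d-SMG, 239, 316, and 156 CPM with s-GAG, and 350, 196, and 336 CPM with Alg.

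Il12b, the p40 chain that IL-12 and IL-23 share, differed in opposite directions on day 3 and 14 with d-SMG. Its levels were 4.07, 1.3, and 0.488 CPM in the control libraries, 0.241, 1.61, and 6.55 CPM with d-SMG, 2.41, 1.11, and 1.7 CPM with s-GAG, and 1.13, 3.32, and 0.311 CPM with Alg. With d-SMG there were 3 reads against 97 in the control on day 3 (-3.86 [-6.38 to -2.49] on the log2 scale) and 104 against 10 on day 14 (3.68 [2.81 to 4.85]). The s-GAG library was 3.39-fold higher on day 14, and the Alg library 3.56-fold lower on day 3 and 2.52-fold higher on day 7. Il12a, the p35 chain, had at most 23 reads in a library and was 4.24-fold higher with Alg on day 7. Il23a, the p19 chain of IL-23, was the only interleukin gene 2-fold higher with all 3 treatments on day 3, at 14 reads in the control and 18, 24, and 34 with d-SMG, s-GAG, and Alg (1.29 [0.21 to 2.42], 1.21 [0.22 to 2.29], and 1.47 [0.57 to 2.52] on the log2 scale). Of their receptors, Il12rb2 was 2.42-fold higher with s-GAG and 6.79-fold lower with d-SMG on day 3, where the d-SMG library held 1 read, and the interval of the latter ran from -8.69 to -0.66 on the log2 scale.

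Il11, a stromal cytokine of the IL-6 family, was lower with all 3 treatments on day 7, when the control library held 35 reads and d-SMG, s-GAG, and Alg 17, 23, and 10 (-1.59 [-2.54 to -0.74], -2.00 [-2.84 to -1.21], and -1.77 [-3.00 to -0.77] on the log2 scale). The receptor Il11ra1 was at 34.8, 19.2, and 52.4 CPM in the control libraries, 20.3, 26.2, and 59.8 CPM with d-SMG, 42.9, 35.9, and 160.5 CPM with s-GAG, and 38.8, 40.6, and 35.4 CPM with Alg. Its s-GAG library of day 14 was the highest of the 12, 3.06-fold above control, and the fitted change between day 7 and 14 was 1.21 ± 0.40 (SE), higher in 3 of 4 treatments, with an adjusted p of 0.904 by edgeR.

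Il31ra, a receptor chain for the itch cytokine IL-31 in keratinocytes and sensory nerves, had the widest FPKM range relative to its lowest library, 0.05 to 3.61 FPKM, among the receptor chains with enough reads in all 9 pairs. It was at 4.03, 1.43, and 8.3 CPM in the control libraries, 0.482, 4.005, and 12.7 CPM with d-SMG, 17.4, 24.97, and 2.52 CPM with s-GAG, and 11.6, 5.01, and 9.32 CPM with Alg. It was 7.75-fold lower with d-SMG on day 3 and 4.31-fold and 2.86-fold higher with s-GAG and Alg. On day 7 all 3 treated libraries were higher, by 2.74-fold, 17-fold, and 3.44-fold, and on day 14 the s-GAG library was 3.26-fold lower. The keratinocyte markers summed to 5300, 4090, and 10600 CPM in the control libraries, 52.2, 8320, and 18800 CPM with d-SMG, 11000, 17100, and 39200 CPM with s-GAG, and 9350, 15000, and 18000 CPM with Alg. The markers did not all follow the sum in the s-GAG library of day 14, where 4 of 11 were 2-fold higher and 3 lower, with a median log2 ratio of 0.25. There Krt14, a keratin of the basal layer, had 361150 reads against 49421 in the control, whereas Krt1, a keratin of the layers above, had 1212 against 33853. The d-SMG pair of day 14 was split too, with 6 of 11 markers 2-fold higher and 4 lower. In that d-SMG library Krt14 had 168013 reads and Krt1 had 538. With Alg on day 3, 3 of 11 were higher and 2 lower. The part of these markers in the levels of Il31ra and Il36rn was not tested.

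The receptor chains of the common gamma chain group are carried mainly by lymphocytes. Il2rg, the common gamma chain, was at 9.87, 13.5, and 5.91 CPM in the control libraries, 8.93, 16.6, and 11.1 CPM with d-SMG, 8.83, 3.97, and 3.95 CPM with s-GAG, and 5.44, 5.83, and 6.52 CPM with Alg. On day 7 the control and d-SMG libraries were high and the s-GAG and Alg libraries 3.4-fold and 2.31-fold below control. In the same pairs Il2ra was 4.07-fold and 6.83-fold lower, Il2rb 8.03-fold and 3.05-fold lower, and Il7r, the IL-7 receptor, 3.17-fold and 3.03-fold lower. The group as counted here also holds the IL-13 and beta chain receptors, the decoy Il13ra2, and ligands such as Il7 and Il15. Across it, 9 of 14 genes with s-GAG and 7 of 12 with Alg were 2-fold lower on day 7, and 1 of 13 with d-SMG. The shares of all genes were 11.6%, 11.1%, and 5.47%. The lower genes included Il4r and Il13ra1 in both the s-GAG and the Alg pair, and the ligand Il7 with s-GAG. Of the T and NK cell markers with enough reads, 7 of 9 and 7 of 8 were 2-fold lower with s-GAG and Alg on that day and 0 with d-SMG. Cd4, which macrophages of the rat also carry, made up between 70.2% and 92.2% of the sum of these markers. The other 8 markers, a sum chosen after seeing the data, came to 15.3 and 15.7 CPM with s-GAG and Alg on day 7, against 46.7 CPM in the control and 62.4 CPM in the d-SMG library, and the part of the markers in the receptor levels was not tested. On day 3 the s-GAG library differed the other way for part of the group, as Il2ra was 2.35-fold and Il2rb 2.39-fold higher, and 7 of 9 T and NK cell markers were 2-fold higher in that pair.

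On day 14 the d-SMG library was above control, with 6 of 12 genes of the group, the ligand Il7 among them, 2-fold higher and 0 lower, beside 11.5% and 14.8% of all genes. Il7r was 3.77-fold, Il21r 4.2-fold, Il2ra 2.76-fold, and Il2rb 2.36-fold higher, and 6 of 9 T and NK cell markers were 2-fold higher in the same pair. Without Cd4 these markers summed to 65.7 CPM against 27.1 CPM in the control, and with it to 224 against 331 CPM. With s-GAG and Alg on the same day, Il2ra was 4.23-fold and 3.41-fold lower. Il21r, the IL-21 receptor, was at 11.04, 22.5, and 4.69 CPM in the control libraries, 17.9, 18.2, and 19.8 CPM with d-SMG, 6.08, 3.99, and 7.7 CPM with s-GAG, and 7.79, 7.998, and 12.6 CPM with Alg. All 3 treated libraries were below control on day 7 and above it on day 14.

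Il4r was at 41.9, 127, and 22.6 CPM in the control libraries, 89.03, 61.2, and 37.3 CPM with d-SMG, 22.02, 29.4, and 21.2 CPM with s-GAG, and 50.2, 28.5, and 68.8 CPM with Alg. The control library of day 7 was the highest of the 12, and on that day the log2 ratios were -1.05 [-1.15 to -0.95], -2.11 [-2.22 to -2.00], and -2.15 [-2.31 to -2.00] with d-SMG, s-GAG, and Alg. On day 3 the d-SMG library was 2.13-fold higher, and on day 14 the Alg library 3.05-fold higher. Il13ra1, the other chain of the receptor that IL-4 and IL-13 share on stromal and epithelial cells, was at 16.1, 24.4, and 15.6 CPM in the control libraries, 10.1, 21.7, and 11.9 CPM with d-SMG, 13.3, 11.5, and 1.36 CPM with s-GAG, and 10.6, 8.06, and 15.6 CPM with Alg. It was below control with an interval that leaves out 0 in 7 of 9 pairs, and the exceptions were d-SMG on day 7 (-0.17 [-0.37 to 0.03] on the log2 scale) and Alg on day 14 (-0.00 [-0.25 to 0.24]). It was 11.2-fold lower in the s-GAG library of day 14, with 20 reads against 320. The decoy receptor Il13ra2 was at 18, 2, and 1 reads in the control libraries, 15, 20, and 15 with d-SMG, 19, 40, and 17 with s-GAG, and 15, 2, and 21 with Alg. Against 2 reads in the control it was higher on day 7 with d-SMG and s-GAG (2.47 [0.71 to 5.89] and 2.61 [0.97 to 6.01] on the log2 scale), and against 1 read it was higher on day 14 with Alg (4.19 [2.10 to 10.11]).

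Of the ligands of the group, Il15 and Il7 had enough reads. Il15, which maintains NK and memory T cells, was at 7.68, 3.003, and 1.81 CPM in the control libraries, 5.55, 2.44, and 2.71 CPM with d-SMG, 2.58, 3.45, and 7.57 CPM with s-GAG, and 2.69, 3.39, and 2.24 CPM with Alg. It was lower on day 3 with s-GAG and Alg (-1.56 [-2.08 to -1.10] and -1.50 [-1.97 to -1.07] on the log2 scale) and 4.15-fold higher with s-GAG on day 14. Il7, which maintains T cells, was 2-fold lower with all 3 treatments on day 3, with 64 reads in the control and 13, 14, and 11 with d-SMG, s-GAG, and Alg (-1.32 [-2.35 to -0.49], -1.70 [-2.69 to -0.89], and -2.27 [-3.39 to -1.38]). It was also 2-fold lower with s-GAG on day 7 (0.799 against 1.64 CPM). With d-SMG on day 14 it was 2-fold higher, at 34 reads against 18. Of the beta chain receptors, Il3ra was within 2-fold of control except with s-GAG on day 14 (2.61-fold higher), and Il5ra had at most 22 reads in a library.

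In the IL-10 family, Il10, the inhibitor of macrophage and T cell cytokines, had few reads, with 43, 21, and 26 reads in the control libraries, 5, 20, and 23 with d-SMG, 15, 23, and 1 with s-GAG, and 4, 9, and 8 with Alg. It was 2-fold lower than control in 7 of 9 pairs, and the exceptions were d-SMG on day 7 and 14, with intervals that include 0. On day 3 the log2 ratios were -2.05 [-3.86 to -0.83], -1.04 [-2.02 to -0.19], and -3.05 [-5.14 to -1.74] with d-SMG, s-GAG, and Alg. On day 14 those of s-GAG and Alg were -3.66 [-9.58 to -1.61] and -1.29 [-2.71 to -0.17], the first with 1 read. Il10ra, its binding chain on leukocytes, was at 48.8, 44.4, and 27 CPM in the control libraries, 24.5, 36.7, and 26.2 CPM with d-SMG, 25.9, 14.1, and 3.95 CPM with s-GAG, and 16.2, 11.2, and 23.6 CPM with Alg. It was below control in 8 of 9 pairs with an interval that leaves out 0, and the exception was d-SMG on day 14 (-0.04 [-0.23 to 0.14] on the log2 scale). The ratio was 2-fold or more in 4 of them, namely Alg on day 3, s-GAG and Alg on day 7, and s-GAG on day 14 (6.78-fold lower). The fitted change with s-GAG over the 3 days was -1.55 ± 0.57 (SE), with an adjusted p of 0.5 by edgeR. The macrophage and monocyte sum was below control in these 4 pairs. It was also below control, at 2380 and 1950 against 4010 CPM, with d-SMG and s-GAG on day 3. There Il10ra was lower but just short of 2-fold, by 1.99-fold with d-SMG and at 25.9 against 48.8 CPM with s-GAG. With d-SMG on day 14 the sum was 1690 against 2880 CPM, where Il10ra was near control. The sum was above control with d-SMG on day 7 (4510 against 3270 CPM) and with Alg on day 14 (3420 against 2880 CPM). In both of these pairs Il10ra was below control, at 36.7 against 44.4 CPM and 23.6 against 27 CPM. The part of this sum in the Il10ra levels was not tested. Il10rb, the widely expressed partner chain, was 2-fold lower only with Alg on day 7.

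Of the ligands Il19, Il20, and Il24, which signal to keratinocytes, Il20 and Il24 had at most 3 reads in the control library of any day. Il19 had 26 and 27 reads in the control libraries of day 3 and 7. All of them stood near 0 in the control library of day 14. Il19 had 1 read there and 20 and 23 reads with d-SMG and Alg (4.14 [2.04 to 10.06] and 4.32 [2.25 to 10.23] on the log2 scale), but 0 reads with s-GAG. On earlier days it was lower, by 2.52-fold and 5.05-fold with d-SMG and Alg on day 3 and 4.8-fold with d-SMG on day 7. Il20 had 2 reads there and 20 reads each with d-SMG and s-GAG (3.40 [1.65 to 6.83] and 3.52 [1.76 to 6.95]). Il24 had 0 reads there and 9, 12, and 8 reads with d-SMG, s-GAG, and Alg, which is too few for a ratio. Of their receptors, Il20rb was at 32.3, 21.5, and 37.8 CPM in the control libraries, 16.7, 25.2, and 53.2 CPM with d-SMG, 32.7, 50.5, and 34.02 CPM with s-GAG, and 30.8, 47.8, and 45.5 CPM with Alg. It was 2.35-fold and 2.22-fold higher with s-GAG and Alg on day 7, where Il20ra was 4.33-fold and 3.44-fold higher. Il22ra1, the epithelial IL-22 receptor chain, was at 3, 5, and 47 reads in the control libraries, 0, 21, and 26 with d-SMG, 43, 115, and 8 with s-GAG, and 37, 24, and 56 with Alg. It was higher on day 3 with s-GAG and Alg (4.08 [2.65 to 6.62] and 3.64 [2.19 to 6.19], against 3 control reads) and on day 7 with all 3 treatments. All 11 keratinocyte markers were 2-fold higher with s-GAG and Alg on day 7. Il22ra2, the soluble decoy of IL-22, was 2.35-fold higher with d-SMG on day 3 and 3.23-fold and 4.23-fold lower with s-GAG and Alg on day 14.

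**Figure D5:**
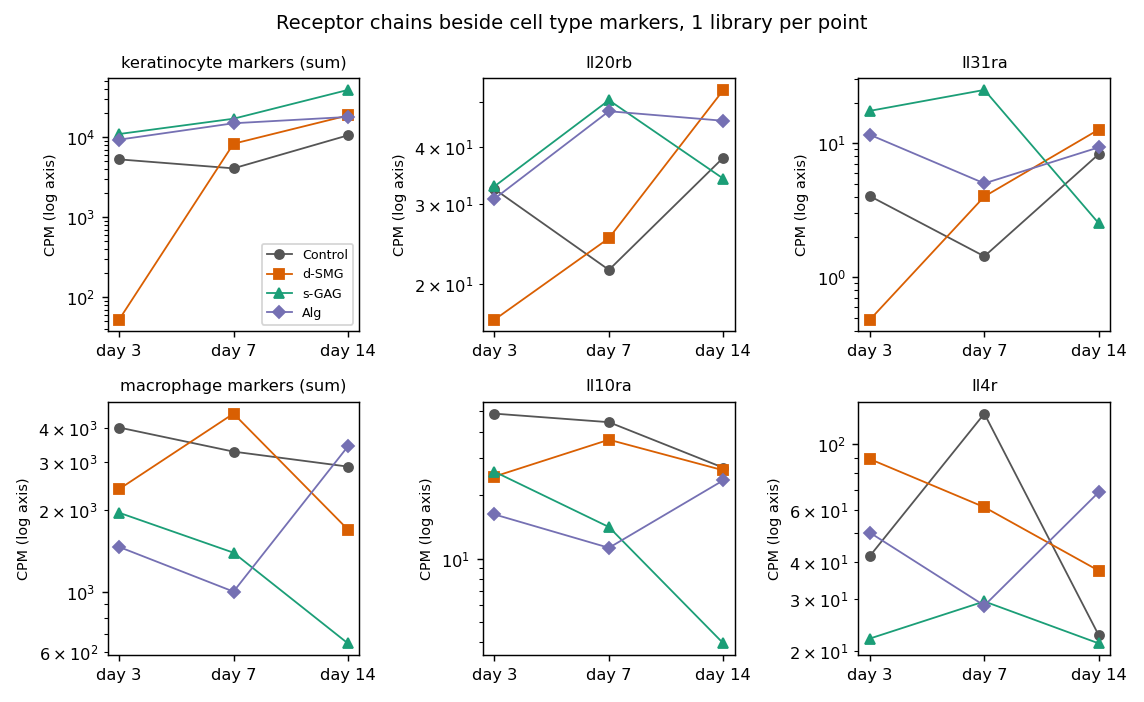
TMM-scaled CPM, on log axes, of the summed keratinocyte and macrophage markers (11 genes each, left column) and of 4 receptor chains on day 3, 7, and 14, with 1 library per point. Il31ra, like the keratinocyte sum (52.2 CPM), is lowest in the d-SMG library of day 3, and Il10ra, like the macrophage sum (645 CPM), is lowest in the s-GAG library of day 14. The keratinocyte sum is highest in that s-GAG library (39200 CPM), where Il31ra is below control (2.52 against 8.3 CPM).

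In the IL-17 family, the ligands made by T cells were near 0, and those measured were Il17b and Il17d. Il17d had between 5 and 14 reads in a library and was within 2-fold of control in the 6 pairs with enough reads. Il17b signals through IL-17RB and IL-17RA. Il17b was at 1.76, 1.02, and 0.732 CPM in the control libraries, 0.563, 2.9, and 6.92 CPM with d-SMG, 3.9, 4.74, and 17.7 CPM with s-GAG, and 3.97, 3.12, and 3.79 CPM with Alg. All treated libraries but the d-SMG library of day 3 were above the control of their day, and 2-fold or more so in all 8. The log2 ratios were -1.56 [-3.05 to -0.48], 1.47 [0.67 to 2.42], and 3.20 [2.46 to 4.13] with d-SMG, 1.14 [0.57 to 1.74], 2.17 [1.45 to 3.08], and 4.55 [3.85 to 5.46] with s-GAG, and 1.16 [0.61 to 1.74], 1.57 [0.74 to 2.55], and 2.34 [1.54 to 3.29] with Alg. Those 8 ratios rest on 3 control libraries with 42, 15, and 15 reads. The fitted change with s-GAG was 2.47 ± 0.80 (SE), higher in 3 of 3 libraries, with an adjusted p of 0.467 by edgeR. Without the s-GAG library of day 14 it was 1.96 ± 0.81 (SE), with an adjusted p of 0.562 by edgeR, and without the d-SMG library of day 3 it was 2.65 ± 0.63 (SE), with an adjusted p of 0.14.

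The IL-17 receptor chains did not all share the direction of the ligand. Il17rb, the binding chain for IL-17B, had 1, 21, and 0 reads in the control libraries, 3, 8, and 10 with d-SMG, 4, 20, and 3 with s-GAG, and 5, 9, and 5 with Alg, and was 2-fold lower on day 7 with all 3 treatments (-1.91 [-3.35 to -0.73], -1.47 [-2.44 to -0.52], and -1.19 [-2.54 to -0.04] on the log2 scale with d-SMG, s-GAG, and Alg). Il17ra was at 104, 98.6, and 52.9 CPM in the control libraries, 148, 93.5, and 158 CPM with d-SMG, 54.3, 56.95, and 149 CPM with s-GAG, and 107, 85.5, and 73.6 CPM with Alg. It was 2.99-fold and 2.81-fold higher with d-SMG and s-GAG on day 14. The epithelial chains Il17re and Il17rd were 4.15-fold and 4.2-fold lower in the d-SMG library of day 3, and Il17rc was within 2-fold of control except with Alg on day 7 (2.2-fold higher).

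Of the remaining genes, Il16, a chemoattractant of CD4+ cells, was 2.48-fold lower with s-GAG on day 14, and Il34, a ligand of the CSF-1 receptor on macrophages, was within 2-fold of control in all 9 pairs, at 5.84, 4.37, and 5.13 CPM in the control libraries, 4.02, 5.43, and 4.03 CPM with d-SMG, 3.67, 3.38, and 6.34 CPM with s-GAG, and 5.83, 3.66, and 3.48 CPM with Alg. Several receptor chains and ligands had few reads. Il27ra, the IL-27 receptor, and Il9r, the IL-9 receptor, were 4.14-fold and 2.27-fold higher with d-SMG on day 14, with 30 and 18 reads, and Il27 had at most 6 reads in a library. Il12rb1, a chain of the IL-12 and IL-23 receptors, was 3.29-fold lower with s-GAG on day 7, and Il23r was 2.36-fold lower with d-SMG on day 7, with an interval that includes 0. Il15ra, the IL-15 receptor, was 2-fold lower than control in 1 of 9 pairs, s-GAG on day 7. Il4i1 was 4.92-fold and 2.15-fold higher with d-SMG and s-GAG on day 14.

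Genes that carry the signals of these receptors were counted in the same way, to be read beside the shares of all genes given for each pair. Of 19 genes of IL-1 family signalling (such as Myd88, the IRAK kinases, and Nfkb1), none was 2-fold higher and between 0 and 4 were lower in the pairs of day 3 and 7. On day 14 the s-GAG pair had 2 higher and 6 lower, where 27.2% and 29.7% of all genes were, the d-SMG pair 0 of either, and the Alg pair 1 higher. Of 15 JAK, STAT, and SOCS genes, 2, 1, and 1 were higher and 3, 3, and 3 lower on day 3 with d-SMG, s-GAG, and Alg, 1, 0, and 1 higher and 1, 3, and 2 lower on day 7, and 4, 3, and 1 higher and 0, 6, and 0 lower on day 14. Of 20 related cytokines and receptors without an Il symbol (such as Lif, Lifr, and Osm), 7 were lower on day 7 with both s-GAG and Alg, of 17 and 16 with enough reads, and 3 with d-SMG, beside 11.6%, 11.1%, and 5.47% of all genes. In the fit over the days, edgeR called 0 genes of these 3 lists in any contrast.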

How the data were processed

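RNA from wound skin was sequenced by the authors as stranded, rRNA-depleted libraries in paired reads, and the submitters' processing notes name bcl2fastq, FastQC, TopHat2, and edgeR, without versions. The genome build, and whether counting used strand, are not given in the sources used here. The authors deposited whole-number read counts of 25620 genes, not normalized, and FPKM values, which correct for gene length and sequencing depth, of 25524 genes. Each table has 1 further column of values that matches no sample, which was not used.

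Each library was assigned to its treatment and day from the sample labels. Counts were fitted with the quasi-likelihood test of edgeR 4.0.16 (R 4.3.3), with treatment and day as terms, TMM factors, filterByExpr, and Benjamini-Hochberg adjustment at 0.05 (common biological coefficient of variation 0.495, 6 residual degrees of freedom). Each treated library was also compared with the control library of its day. These log2 ratios used TMM-scaled reads with 0.5 added, at least 20 reads in the pair, and exact Clopper-Pearson intervals at 95%, which cover counting error only and not the spread between animals. A ratio against 0 reads is given as a bound computed against 3 reads in that library. limma 3.58.1 and DESeq2 1.42.0 served as alternatives, and figures were drawn with matplotlib. The fits were also run on simulated data, where the check to be passed used a variation between libraries far below that of these data.

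The genes described in full are the interleukins that the study's text names, the 12 with the highest mean FPKM, any called by edgeR, the 3 largest rises and falls past 2-fold in each pair, and the receptors and antagonists of those ligands. The genes, the lists, and the tests were chosen with earlier results of these data known.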

Additional observations from a re-analysis of the deposited data

Results flagged for a closer look

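Among the genes with at least 20 reads in all 3 pairs of both days, 5 had all 3 treated libraries on one side of the control on a given day and on the other side on another day. For all but Il21r, at least 1 of the ratios has a counting interval that includes 0. These differences between days were not tested, and the 3 treated libraries of a day share 1 control library. On day 3, 7, and 14, respectively, 49, 50, and 49 interleukin genes had enough reads in all 3 pairs. The rule was run on interleukin genes only, so no share of all genes can be set beside the 5. For Il15 the mean log2 ratio was 2.16 higher on day 14 (0.58, 2.05, and 0.31 with d-SMG, s-GAG, and Alg) than on day 3 (-0.46, -1.56, and -1.50). For Il17ra it was 1.54 higher on day 14 (1.58, 1.49, and 0.48) than on day 7 (-0.08, -0.79, and -0.21). For Il21r it was 2.83 higher on day 14 (2.07, 0.72, and 1.42) than on day 7 (-0.30, -2.49, and -1.49).

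For Il18rap the mean log2 ratio was highest on day 3 (0.999, 1.08, and 0.32), by 2.81 over day 7 (-0.73, -2.43, and -2.85) and by 2.17 over day 14 (-0.07, -3.68, and -0.37). For Il3ra it was 0.99 higher on day 14 (0.33, 1.39, and 0.11) than on day 3 (-0.23, -0.81, and -0.12).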

How the results depend on the processing

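In the 9 pairs, 20, 19, and 13 interleukin genes were past 2-fold with d-SMG, s-GAG, and Alg at day 3. The counts were 13, 31, and 27 at day 7 and 23, 26, and 16 at day 14. On log2(FPKM + 1), which draws low genes towards 0, these became 8, 5, and 2 at day 3, then 1, 14, and 12 at day 7, and lastly 14, 13, and 7 at day 14. With a minimum of 50 reads they became 11 with d-SMG on day 3, 8 with Alg on day 3, 6 with d-SMG on day 7, and 8 with Alg on day 14. The other counts stayed within 1.5 times of these under RLE factors, the library size alone, a minimum of 10 reads, 0.1 added to FPKM, an interval that leaves out 0, and an added count of 2. They did so too with TMM factors computed without the d-SMG library of day 3 and the s-GAG library of day 14, an alternative chosen after seeing the data. For 15 genes followed singly, no 2-fold ratio changed its sign, but 55 of 528 ratios left their counting interval, 31 with the library size alone (by up to 0.45 on the log2 scale) and 24 with 0.1 added to FPKM (by up to 0.64).

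In the fit over treatments and days, 0 interleukin genes were called for each contrast, and 0 under RLE factors, no low-count filter, only the libraries compared, no replicate block (the compared term alone), limma on log2(FPKM + 1), and each day or treatment left out in turn (0 to 0). DESeq2 called 1 with s-GAG, and 0 in the other contrasts. Over all genes DESeq2 called 9, 277, and 93 for d-SMG, s-GAG, and Alg and 18, 46, and 26 for the days, where edgeR called 0 in each. With only the libraries compared edgeR called 12 and 9 of all genes for s-GAG and Alg, and without the d-SMG library of day 3 it called 66 for s-GAG. At an unadjusted p under 0.05 the counts were 1, 5, and 2 for d-SMG, s-GAG, and Alg and 2, 5, and 2 for day 7 against 3, day 14 against 3, and day 14 against 7. With 1 library per treatment and day, the spread between animals is not known, and genes under about 20 reads in a pair support no ratio.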
